A study of Homo sapiens with 3 samples.

Results

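The 9 genes described here encode transcription factors that set up the eye field, the optic vesicle and the retinal pigment epithelium: PAX6, OTX2, MITF, LHX2, SIX3, RAX, SOX9, CRX and PAX2. They were taken by gene symbol as 9 of the 58735 genes in the deposited count table, all of them whatever their level. The counts came from poly(A) RNA of RPE-1, a telomerase-immortalised human line derived from retinal pigment epithelium. These cells carry GFP-tagged centrin 2 (Cetn2 in the labels) and PLK4, the kinase that controls centriole duplication, under a promoter that doxycycline can switch on through rtTA. All 3 libraries form 1 group, siControl_no_induction, from cells that received scramble siRNA and had no PLK4 induction. There is therefore no treated group, and the comparisons are between genes within a library and between the 3 libraries. Separate cultures are not stated in the labels, so p-values cover only how far these 3 samples scatter, and that scatter may be technical.

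In the embryo the eye field is marked by RAX, PAX6, SIX3 and LHX2, which act together before and during the outgrowth of the optic vesicle. The vesicle then divides into neural retina, pigment epithelium and optic stalk. OTX2 and MITF specify pigment epithelium and bind the promoters of pigment genes, SOX9 acts with them in pigment epithelium, PAX2 marks the optic stalk, and CRX, a close relative of OTX2, drives photoreceptor genes.

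Of the 9 genes, 5 were expressed and 4 were at or near 0. SIX3, SOX9, OTX2, MITF and PAX6 stood at 1 CPM or more (counts relative to the library total, scaled by TMM) in each library, the limit used here for a detected gene. LHX2 and PAX2 had 16 and 8 counts over the 3 libraries, and RAX and CRX had none. In bulk RNA, fewer cells that express a gene and less RNA per cell cannot be told apart. By the same limits 57.7% of the 19951 protein-coding genes (21.5% of all genes in the table) were detected and 22.5% had 0 counts in every library, shares near those of the 9 genes. Per kilobase of annotated exon (RPKM), the order was SIX3 (21.8 ± 5.85 RPKM, SD, n = 3), SOX9 (18.7 ± 6.44), OTX2 (5.47 ± 0.239), MITF (3.05 ± 0.253) and PAX6 (1.95 ± 0.268). SIX3 and SOX9 stood above 90.7% and 88.9% of protein-coding genes by RPKM, and OTX2, MITF and PAX6 above 69.3%, 59.99% and 54.6%. These positions depend on length. By CPM, PAX6 ranked 5027 and MITF 7117 among protein-coding genes, against 9064 and 7982 by RPKM. SIX3, SOX9 and OTX2 ranked lower by CPM than by RPKM. The median of the 5 detected genes was 5.47 RPKM, against 6.09 RPKM over all detected protein-coding genes.

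**Figure D1:**
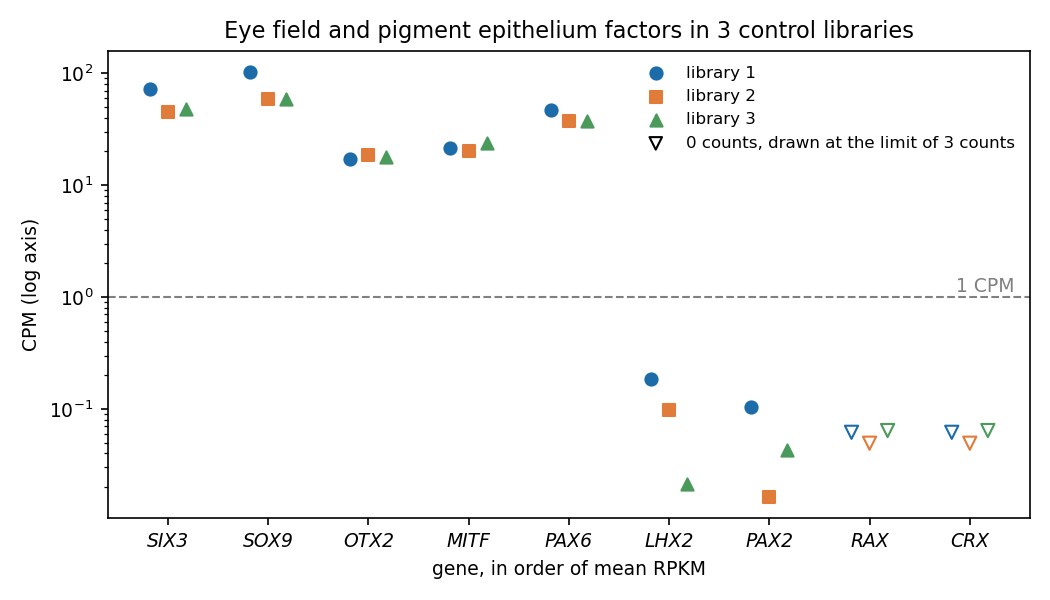
CPM (log axis) of each of the 9 genes in libraries 1, 2 and 3, in order of mean RPKM; open triangles mark 0 counts, drawn at the limit that 3 counts would give. SIX3, SOX9, OTX2, MITF and PAX6 lie above 1 CPM in every library, and LHX2, PAX2, RAX and CRX lie below it in every library.

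The libraries held 49279692, 60040029 and 46625774 counts. Library 1 stood apart over the whole table: it was the farthest from the mean in 66.4% of the genes whose spread exceeded counting noise, and it had counts in 19953 genes, against 24416 and 23050 in libraries 2 and 3. Transcripts of the mitochondrial genome took 9.69% of its counts, against 5.67% and 6.30%. The immediate early genes EGR1 (133 CPM, against 33.1 and 25.4) and FOSB (124 CPM, against 22.8 and 14.98) were also highest there. Whether the 3 counts of a gene differed more than counting noise allows, given the scaled library sizes, was judged by chi-square, adjusted after Benjamini-Hochberg over the 16293 genes whose mean count reached 10 (threshold 0.05). Such a spread was found in 68.6% of those genes, in 77.5% of the detected protein-coding ones, and in 4 of the 5 detected factors, a share near the background. Of the 4 factors called, 3 were highest in library 1, as were 40.6% of all genes called. Without library 1 the test called 28.1% of genes and 1 factor, MITF, and with an extra coefficient of variation of 0.05 it called 32.7% of genes and 3 factors.

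SIX3, a homeodomain protein that represses Wnt signalling in the anterior neural plate of the mouse, had 3491, 2752 and 2225 counts, or 71.9, 45.3 and 47.6 CPM in libraries 1, 2 and 3 (54.9 ± 14.8 CPM, SD, n = 3). SIX3 (ENSG00000138083) lies on chromosome 2 from 44941898 to 44946077 (hg38, + strand). Library 1 was the high one, at 1.55 times the mean of the other two, which lay close to each other. The spread exceeded counting noise (adjusted p = 1.13e-87 by chi-square), and the call was lost without library 1 (adjusted p = 0.201). Among tested genes, 8.55% were raised in library 1 at least as far as SIX3.

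SOX9 (ENSG00000125398, chromosome 17, 72121020 to 72126420, + strand), an HMG-box factor of pigment epithelium, Müller glia and cartilage, had 4986, 3577 and 2748 counts. These were 103, 58.9 and 58.7 CPM in libraries 1, 2 and 3 (73.4 ± 25.4 CPM, n = 3). Again library 1 alone was high, at 1.75 times the mean of the other two, a ratio that 5.93% of tested genes reached. SOX9 had the widest spread of the 5 detected factors, with a coefficient of variation of 34.5% (chi-square test, adjusted p = 6.23e-192). Between libraries 2 and 3 the test made no call (adjusted p = 0.958, chi-square test). When every gene was also granted a coefficient of variation of 0.136, the common value fitted by edgeR, SOX9 was the only factor still called (adjusted p = 0.0369, chi-square test), where 4.28% of all tested genes were. That value itself rested on library 1, since edgeR fitted 0.0602 without it and 0.157 and 0.169 without library 2 or 3.

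PAX6 (ENSG00000007372, chromosome 11, 31784779 to 31818062, − strand), the paired-box factor of the eye field, lens and neural retina, had 2284, 2285 and 1739 counts, or 47.1, 37.6 and 37.2 CPM (40.6 ± 5.58 CPM, n = 3). Its pattern was that of SIX3 and SOX9 at a smaller size, with library 1 at 1.26 times the mean of the other two, a ratio that 18.2% of tested genes reached (adjusted p = 1.25e-16, chi-square test; 0.827 without library 1). The immediate early and mitochondrial transcripts were highest in the same library, and their part in the values of SIX3, SOX9 and PAX6 was not tested.

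OTX2 and MITF, the pair that specifies pigment epithelium, were not highest in library 1. OTX2 (ENSG00000165588, chromosome 14, 56799905 to 56810479, − strand) had 831, 1135 and 837 counts, or 17.1, 18.7 and 17.9 CPM (17.9 ± 0.781 CPM, n = 3). Its coefficient of variation of 4.37% was the lowest of the 5, and its spread did not pass the test (chi-square, adjusted p = 0.197). The call was sensitive to 1 library: without library 3 it passed narrowly (adjusted p = 0.0494, chi-square test). MITF (ENSG00000187098, chromosome 3, 69739435 to 69968337, + strand), a basic helix-loop-helix leucine zipper factor and master regulator of pigment cells, had 1051, 1229 and 1115 counts, or 21.7, 20.2 and 23.8 CPM (21.9 ± 1.81 CPM, n = 3). Here library 3 was highest and library 2 lowest, a small spread that passed the test (adjusted p = 0.000775, chi-square test) but not without library 3 (0.241) or with an extra coefficient of variation of 0.05 (0.234).

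**Figure D2:**
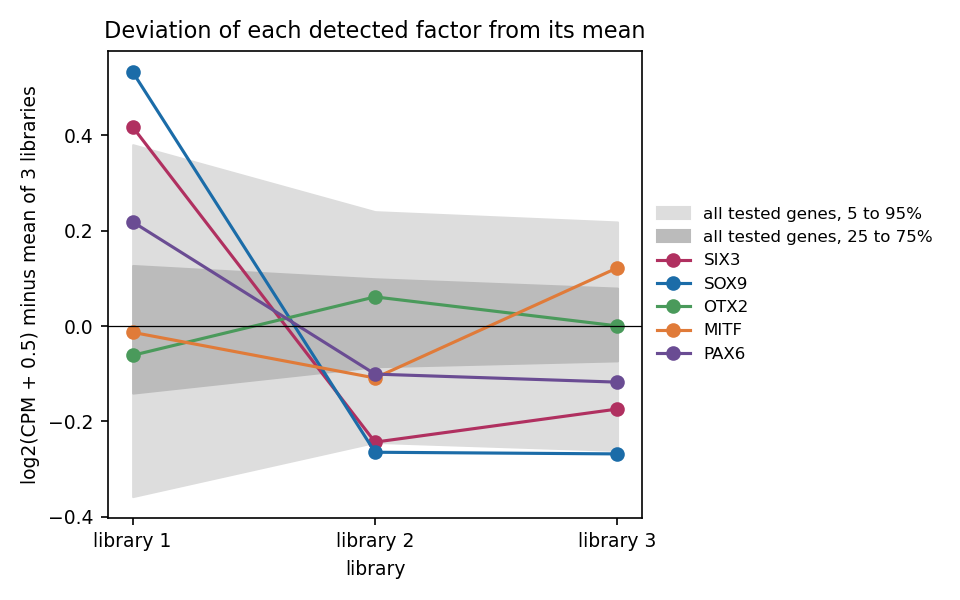
Deviation of log2(CPM + 0.5) of each detected factor from its own mean over libraries 1, 2 and 3; the bands hold the middle 50% and 90% of the 16293 tested genes. SOX9 (0.53), SIX3 (0.42) and PAX6 (0.22) are raised in library 1, while OTX2 (-0.06) and MITF (-0.01) lie near 0 there.

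The order of the 5 levels depended on the length by which counts were divided. Per kb of exon, each neighbour in the order exceeded the next in 3 of 3 libraries. SIX3 stood 1.18-fold above SOX9 (log2 ratio 0.24 ± 0.11 SD), SOX9 3.29-fold above OTX2 (1.72 ± 0.52), OTX2 1.80-fold above MITF (0.85 ± 0.16) and MITF 1.57-fold above PAX6 (0.65 ± 0.24). Each difference was larger than its SD between libraries, and the exact two-sided sign-flip test gave p = 0.25 for each (adjusted p = 0.25 over the 4 pairs), the smallest p that 3 libraries allow. The union of annotated exons is 20812 bases for PAX6, whose longest coding transcript has 7290 bases, and 7181 against 4814 bases for MITF. Divided by the longest coding transcript, PAX6 stood at 5.57 ± 0.766 and MITF at 4.55 ± 0.377 CPM per kb, so that PAX6 passed MITF (log2 ratio of MITF over PAX6 -0.29). On that scale OTX2 (5.96 ± 0.260) and PAX6 were not separated beyond their spread (log2 ratio 0.11, SD 0.25). SOX9 over OTX2 was the only neighbouring step that kept its direction without any length, where its log2 ratio was 1.99.

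Reads of PAX6 may also be mixed with those of ELP4, a subunit of the Elongator complex, on the opposite strand. ELP4 covers 5241 bases, or 25.2%, of the PAX6 exon union and stood at 13.2 ± 1.24 CPM. The strand setting of the counting is not given, so reads of the shared part cannot be told apart. Some of them may also have been counted for neither gene. The other genes whose exons overlap those of PAX6, PAUPAR and AL035078.4, had 0, 1 and 2 counts and none at all. For the remaining detected factors no exon overlap with another gene was found.

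The noncoding genes next to SIX3 were expressed too, but without its rise in library 1. SIX3-AS1 starts 25 bases from the SIX3 start on the opposite strand, and stood at 1.46, 1.98 and 2.18 CPM in libraries 1, 2 and 3, lowest where SIX3 was highest (chi-square test, adjusted p = 0.0437). LINC01833, whose start lies 2699 bases from that of SIX3, stood at 9.68, 9.12 and 11.1 CPM, and AC012354.1, at 12766 bases, stood at 5.13, 5.63 and 5.02 CPM. Their spread passed the chi-square test for LINC01833 (adjusted p = 0.0101) and not for AC012354.1 (0.382). The counts of SIX3 were 49.2, 22.9 and 21.8 times those of SIX3-AS1 in libraries 1, 2 and 3, so the ratio in library 1 was 2.20 times the mean of the other two. By contrast OTX2-AS1, which starts 2704 bases from OTX2, had 3, 1 and 0 counts. Of the 19 annotated genes that overlap or start within 10 kb of 1 of the 9 factors, 4 were detected (ELP4, LINC01833, SIX3-AS1 and AC012354.1) and 11 had 0 counts, among them TPRX1 beside CRX and AC006450.1, AC006450.2 and AC006450.3 within LHX2.

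**Figure D3:**
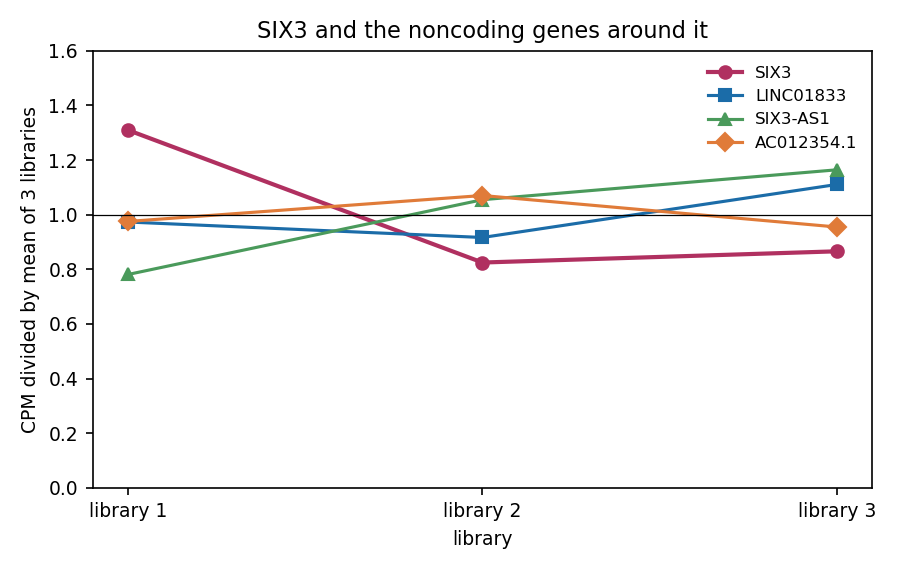
CPM of SIX3 and of the 3 detected noncoding genes around it in libraries 1, 2 and 3, each divided by its own mean. SIX3 is highest in library 1, where SIX3-AS1 is lowest, and LINC01833 and AC012354.1 stay near 1.

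The 4 factors below detection were near the limit of the sequencing depth. Where no count was seen, up to 3 remain possible, which is 0.0618, 0.0494 and 0.0641 CPM by library, and these limits and the exact Poisson intervals that follow cover counting error only. LHX2 (ENSG00000106689, chromosome 9, 124001670 to 124033301, + strand), a LIM homeodomain factor of the eye field and optic cup, had 9, 6 and 1 counts. Its summed level was 0.103 CPM (95% interval 0.0586 to 0.167). PAX2 (ENSG00000075891, chromosome 10, 100735603 to 100829941, + strand), the factor of the optic stalk, had 5, 1 and 2 counts, a summed level of 0.0513 CPM (0.0221 to 0.101). At so few counts no order of the libraries can be read. RAX (ENSG00000134438, chromosome 18, 59267035 to 59274086, − strand), an early eye field homeodomain factor, and CRX (ENSG00000105392, chromosome 19, 47819779 to 47843330, + strand), the photoreceptor factor, had 0 counts in each library. Summed over libraries, the limit of 3 counts is 0.0192 CPM for either gene, and the exact 95% Poisson interval reaches 0.0236 CPM.

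OTX2 and CRX are close relatives whose homeodomains bind the same core, TAATCC, and OTX2 is known to activate CRX in photoreceptor precursors. Per kb, OTX2 was at least 507-fold higher than CRX in every library, taking 3 counts per library as the limit for CRX, and at least 277-fold higher without division by length. Their promoters, 250 bases before to 50 after a start in RefSeq (GRCh38.p14), are shown because OTX2 was expressed and CRX was not. Capitals mark TAATCC or its reverse complement GGATTA, and CATGTG or its reverse complement CACATG, a core bound by MITF. OTX2 has another promoter in that table, which holds none of these motifs.

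CRX promoter, chr19:47821687-47821986 (+ strand): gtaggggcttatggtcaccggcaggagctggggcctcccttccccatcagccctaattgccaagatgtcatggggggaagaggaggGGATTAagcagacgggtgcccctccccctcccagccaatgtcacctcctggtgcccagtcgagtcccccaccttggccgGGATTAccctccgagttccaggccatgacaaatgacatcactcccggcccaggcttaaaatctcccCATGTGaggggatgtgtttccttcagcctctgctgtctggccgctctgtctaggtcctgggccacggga

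OTX2 promoter, chr14:56810430-56810729 (- strand): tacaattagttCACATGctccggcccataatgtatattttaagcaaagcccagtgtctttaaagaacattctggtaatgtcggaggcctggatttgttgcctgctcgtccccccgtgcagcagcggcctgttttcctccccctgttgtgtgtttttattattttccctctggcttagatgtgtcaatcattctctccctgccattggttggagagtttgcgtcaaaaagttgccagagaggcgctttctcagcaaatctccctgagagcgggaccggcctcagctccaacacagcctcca

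The CRX promoter holds 2 matches to TAATCC, beginning 164 and 85 bases before the start, and 1 to CATGTG at 19 bases. At least 1 TAATCC is present in 6.35% of the 34794 promoters of that length, and 2 or more in 0.397%. The OTX2 promoter holds no TAATCC and 1 CATGTG, 239 bases before its start, and at least 1 is present in 11.1% of promoters. These matches describe letters, not bound sites. Of the 9 factors, 7 had promoters in the table, 19 in all, and SIX3 and SOX9 are named only. TAATCC was found in the promoter of CRX and in none of the other 18.

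The pigment and visual cycle genes of pigment epithelium were mostly below detection, while OTX2, MITF and SOX9 were detected. Of 24 such genes, chosen with earlier results of these data known, 10 were detected, 9 had counts below detection and 5 had none (TYR, DCT, MLANA, OCA2 and TTR). The detected share was 41.7%, against 57.7% of all protein-coding genes. Of all protein-coding genes 22.5% had 0 counts, near the share of 5 in 24 here. The median of all 24 was 0.0624 RPKM, against 1.15 RPKM over all protein-coding genes. The highest were GPNMB, a glycoprotein of melanosomes and lysosomes (32.8 ± 11.98 RPKM, n = 3), and the melanosome transport genes MYO5A (7.52 ± 0.337) and RAB27A (6.74 ± 0.743), which other cell types also use. BEST1, a channel gene that MITF, OTX2 and SOX9 are known to activate in pigment epithelium, had 451, 504 and 463 counts (1.03 ± 0.0905 RPKM). Also detected were RAB38, a melanosome trafficking gene (2.49 ± 0.146 RPKM), RDH5, a visual cycle dehydrogenase (1.30 ± 0.211), MERTK, the receptor for phagocytosis of outer segments (1.23 ± 0.102), PMEL, the fibril protein of melanosomes (0.49996 ± 0.118), SERPINF1 (0.402 ± 0.105) and MC1R (0.257 ± 0.0605). Of the same list, the visual cycle gene RPE65, an isomerase, had 8, 6 and 0 counts, and RLBP1, which encodes a retinoid-binding protein of the cycle, had 1, 7 and 3. The list was thus detected in part in a line labelled as pigment epithelium. The summed level of the list was 67.9 RPKM in library 1 against 45.97 and 50.1 in libraries 2 and 3. That rise lay in GPNMB, which alone stood at 46.58, 24.89 and 26.93 RPKM (281, 150.3 and 163 CPM) in libraries 1, 2 and 3. The list as a whole was not raised in library 1. Of its 10 genes with a spread called by the chi-square test, 2 were highest there, GPNMB and SERPINF1.

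TYR, TYRP1 and GPNMB encode melanosomal proteins and are known MITF targets. Their promoters are shown with the same motifs in capitals, since all 3 hold CATGTG more than once while their levels differ widely.

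TYR promoter, chr11:89177625-89177924 (+ strand): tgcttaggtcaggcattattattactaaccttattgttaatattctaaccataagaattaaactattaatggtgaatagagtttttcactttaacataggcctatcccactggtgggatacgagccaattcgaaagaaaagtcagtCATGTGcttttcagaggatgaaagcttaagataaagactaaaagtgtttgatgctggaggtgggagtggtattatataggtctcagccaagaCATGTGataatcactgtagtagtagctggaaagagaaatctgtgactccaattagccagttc

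TYRP1 promoter, chr9:12693135-12693434 (+ strand): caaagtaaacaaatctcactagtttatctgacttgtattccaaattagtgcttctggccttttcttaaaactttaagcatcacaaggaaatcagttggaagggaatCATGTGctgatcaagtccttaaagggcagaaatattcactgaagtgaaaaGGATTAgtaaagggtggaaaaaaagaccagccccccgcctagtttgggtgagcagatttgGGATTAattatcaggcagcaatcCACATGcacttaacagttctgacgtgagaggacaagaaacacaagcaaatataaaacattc

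GPNMB promoter, chr7:23246525-23246824 (+ strand): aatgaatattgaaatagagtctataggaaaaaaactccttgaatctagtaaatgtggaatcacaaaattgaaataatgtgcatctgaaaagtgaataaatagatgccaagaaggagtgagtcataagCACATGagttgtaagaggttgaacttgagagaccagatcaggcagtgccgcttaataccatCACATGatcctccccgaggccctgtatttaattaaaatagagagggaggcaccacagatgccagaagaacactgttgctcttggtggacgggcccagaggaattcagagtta

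TYR, the enzyme that starts melanin synthesis, had 0 counts, and its promoter holds CATGTG 104 and 12 bases before the start. TYRP1, an enzyme of the same pathway, had 8, 1 and 3 counts, with CATGTG at 144 and 11 bases and TAATCC at 94 and 34 bases. GPNMB had 13655, 9132 and 7611 counts, with CATGTG at 123 and 62 bases and no TAATCC. Of all promoters, 1.47% hold CATGTG at least 2 times. The 3 genes were chosen for these matches, and of the other pigment genes with a promoter in the table DCT and GPR143 hold CATGTG at least 2 times in a promoter too. DCT had 0 counts and GPR143 had 5, 15 and 6, so GPNMB was the only detected gene among them. CACGTG, the other MITF motif searched, was in none of the 3 promoters shown and in 7.2% of all promoters.

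Paralogues of the factors ranged between 0 counts and 31.2 RPKM. Of 27 listed paralogues 12 were detected (44.4%, against 57.7% of all protein-coding genes). Another 9 had 0 counts: PAX1, PAX4, PAX7, LHX3, LHX8, SIX6, RAX2, SOX8 and SOX10. TFE3, an MITF family factor that controls lysosomal genes, led the list at 31.2 ± 2.72 RPKM. MITF stood 10.2-fold below TFE3 (log2 ratio -3.35 ± 0.20), while it stood 3.75-fold above TFEB (1.91 ± 0.29). SIX3 exceeded SIX4 by 6.67-fold (log2 2.74 ± 0.36), and was at least 819-fold higher than SIX6, its closest relative and an eye field gene, with 3 counts per library as the limit for SIX6. SIX5 followed TFE3 at 4.98 ± 1.34 RPKM. SOX9 exceeded SOX4 by 2.47-fold (log2 1.31 ± 0.47) and was at least 1032-fold higher than SOX8.

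PAX2, with 8 counts in all, was 401-fold lower than PAX8 (log2 ratio -8.65 ± 1.03), its relative in thyroid and kidney, which stood at 3.42 ± 0.330 RPKM. On summed counts per kb the ratio of PAX2 to PAX8 was 0.00240, with a counting interval of 0.00104 to 0.00474. PAX6 stood 228-fold above PAX2 (log2 ratio 7.83 ± 0.94), and on summed counts the interval ran from 120.0 to 548. OTX2 exceeded OTX1 by 17.5-fold (log2 4.13 ± 0.60), less in library 1 (3.45) than in libraries 2 and 3 (4.57 and 4.38), where OTX1 had fewer counts. LHX2 was 5.24-fold lower than LHX9 (log2 ratio -2.39 ± 0.92), both being low, and on summed counts their ratio was 0.216 (0.122 to 0.357). RAX and RAX2 had 0 counts each, so no ratio was formed. The remaining fixed pairs set OTX2 2.82-fold above PAX6 and SOX9 5.91-fold above MITF. Per kb of exon, all 11 ratios had 1 direction in 3 of 3 libraries, with an exact two-sided sign-flip p of 0.25 each (adjusted p = 0.25 over the 11 pairs), the smallest possible. Length mattered here too. OTX2 over PAX6 had a log2 ratio of -1.17 without length, and of 0.11 ± 0.25 per longest coding transcript (exact two-sided sign-flip p = 0.5), and OTX2 over MITF had -0.29 without length. Without length the log2 ratio was 9.57 for PAX6 over PAX2 (8.76 per longest coding transcript), -4.36 for LHX2 over LHX9, 1.34 for SIX3 over SIX4, -2.61 for MITF over TFE3 and 1.70 for SOX9 over MITF, and per longest coding transcript it was 3.50 for OTX2 over OTX1. These pairs kept their direction, with values moved by over 1.5 times.

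**Figure D4:**
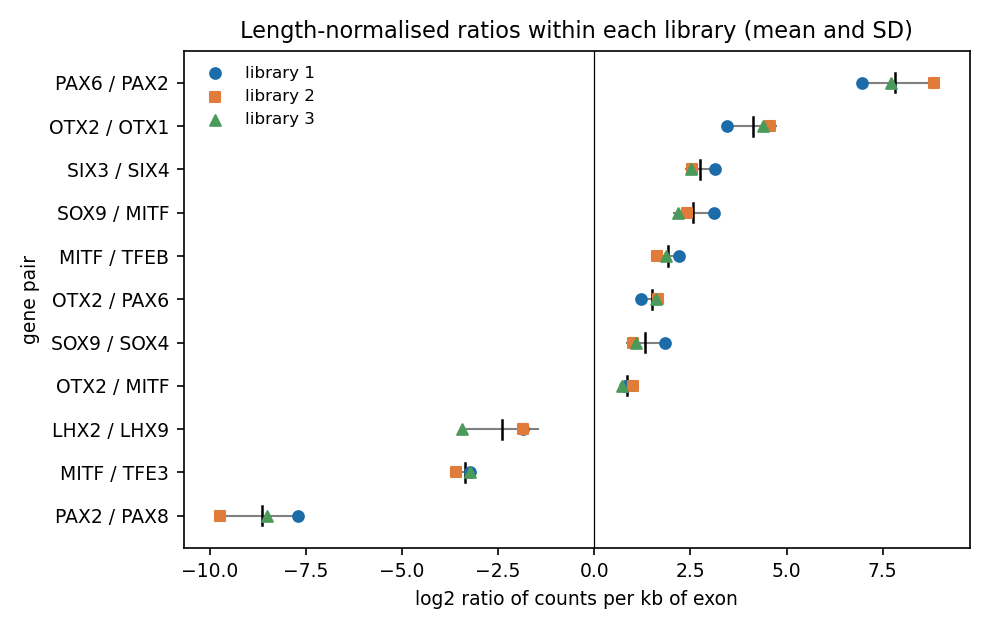
Log2 ratio of counts per kb of exon for 11 gene pairs in libraries 1, 2 and 3, with a black bar at the mean and a grey line over 1 SD either side. PAX6 over PAX2 (7.83) and OTX2 over OTX1 (4.13) lie highest, and PAX2 over PAX8 (-8.65) lowest.

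Other factors of the optic vesicle were present in part. Of 17 listed genes 7 were detected (41.2%, against 57.7% of all protein-coding genes). Highest were NR2F2 (40.3 ± 8.89 RPKM), FOXD1 (38.03 ± 2.66 RPKM) and NR2F1 (25.9 ± 0.428 RPKM), which pattern the optic vesicle and retina in mouse. Among those with 0 counts were SIX6, TBX3, TBX5, VSX1 and VAX1.

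The cofactors of the factors were mostly detected, 20 of 27 (74.1%, against 57.7% of all protein-coding genes). Their median over all 27 was 3.74 RPKM. AES, a Groucho-related corepressor, stood at 70.1 ± 1.75 RPKM and LDB1, the partner of LIM homeodomain factors such as LHX2, at 69.9 ± 2.41 RPKM. MAB21L2, an eye development gene, followed at 41.2 ± 1.71 RPKM. EYA1 and EYA2, coactivators of SIX3 relatives, and DACH2 had 0 counts. By the chi-square test, a spread between libraries was called in 16 of the 22 cofactors tested, in 9 of 13 paralogues, in 4 of 9 other optic vesicle factors and in 10 of 13 pigment and visual cycle genes, beside 68.6% of all genes tested.

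Among genes of signals that pattern the optic vesicle, 9 of 16 were detected (56.25%, near the 57.7% of all protein-coding genes). Highest were INHBA (55.5 ± 16.6 RPKM), the activin subunit gene whose product promotes pigment epithelium in chick, DKK1 (19.2 ± 1.07 RPKM), a Wnt antagonist, and FGF1 (18.1 ± 1.69 RPKM). BMP7, FGF9 and IHH had 0 counts. Of 10 cartilage genes that SOX9 is known to drive, 2 were detected (20%), MATN3 (2.12 ± 0.639 RPKM) and COL11A2 (1.41 ± 0.176 RPKM), and COL9A1, ACAN and COMP had 0 counts.

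Markers of the other cell types that use these factors were detected in part. The detected share was 5.88% for photoreceptor and neural retina markers and 26.7% for lens markers. It was 41.7% for neural crest, melanocyte and periocular markers, the same as for the pigment and visual cycle genes. Over all protein-coding genes it was 57.7%. Of 17 photoreceptor and neural retina markers 1 was detected, PRDM1 (0.992 ± 0.118 RPKM). Among those with 0 counts were SAG, PDE6B, ARR3, RBP3, PROM1, NEUROD1 and PTF1A, and the summed level of that list was 1.18 to 1.29 RPKM over the libraries. Of 15 lens markers 4 were detected, led by BFSP1 (4.51 ± 0.290 RPKM), MAF (2.30 ± 1.23 RPKM) and HSF4 (1.68 ± 0.0748 RPKM). The remaining detected lens marker was the crystallin gene CRYAB, at 1.11 RPKM. CRYAA, CRYGC, CRYGD, BFSP2, LIM2 and FOXE3 had 0 counts, and the sum was 8.75 to 10.7 RPKM. Of 12 markers of neural crest, melanocytes and periocular mesenchyme 5 were detected, led by FOXC2 (15.5 ± 3.65 RPKM), TFAP2A (5.83 ± 0.983 RPKM) and FOXC1 (3.94 ± 0.257 RPKM). SOX10, FOXD3, TFAP2B, KIT, MLANA and LMX1B had 0 counts, and the sum was 23.1 to 31.5 RPKM.

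**Figure D5:**
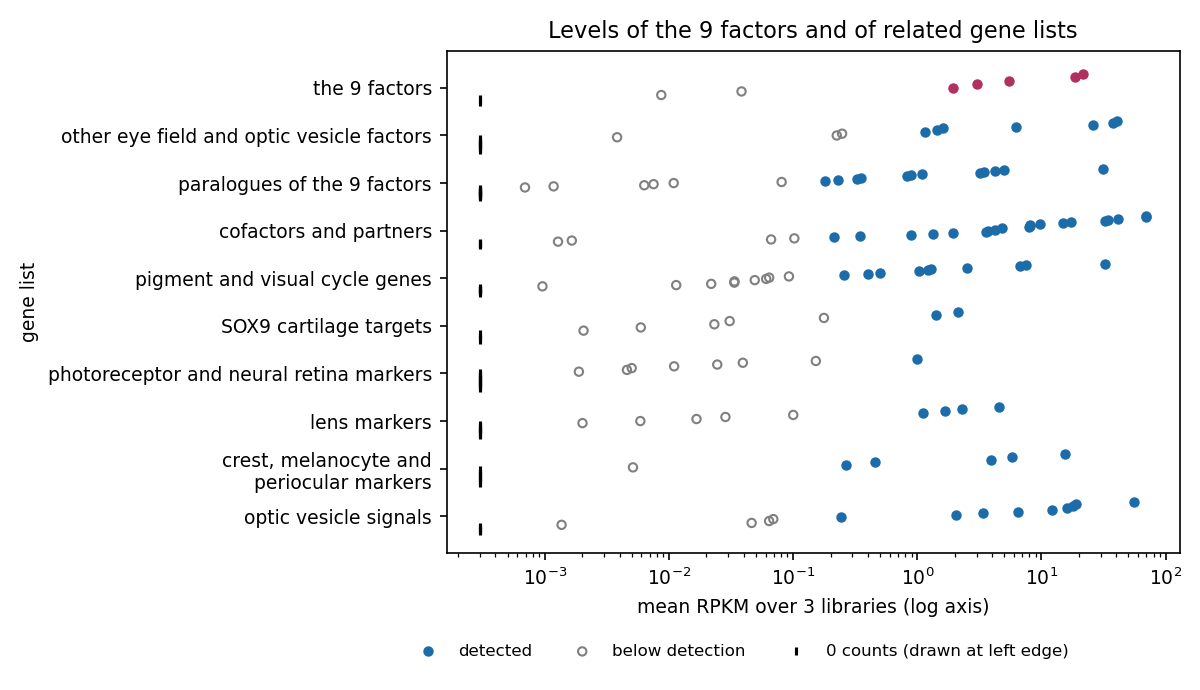
Mean RPKM over the 3 libraries (log axis) of every gene in the 9 factors and in 9 related lists; filled points are detected genes, open points lie below detection and bars at the left edge had 0 counts. The 5 detected factors lie between 1.95 and 21.8 RPKM, and photoreceptor and neural retina markers hold 1 detected gene, at 0.992 RPKM.

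For each detected factor, the genes most alike over the 3 libraries were taken from the 74 other detected genes of these lists by the Euclidean distance between log2(CPM + 0.5) deviations. With only 3 libraries in 1 group this is a description of how the libraries differed. FOXC2 (57.2, 38.4 and 39.4 CPM, distance 0.07) and INHBA (618, 363 and 401 CPM, 0.08) were nearest to SIX3. LHX9 (2.78, 1.51 and 1.37 CPM, 0.08) and GPNMB (0.09) were nearest to SOX9, and MEIS2 (61.3, 47.9 and 47.1 CPM, 0.03) and PRDM1 (7.21, 5.96 and 5.86 CPM, 0.05) to PAX6, all of them highest in library 1. HSF4 (5.46, 5.96 and 5.64 CPM, 0.01) and ZIC2 (4.49, 5.07 and 4.79 CPM, 0.03) were nearest to OTX2. BEST1 (9.29, 8.30 and 9.90 CPM, 0.04) and RAB27A (38.2, 33.5 and 41.7 CPM, 0.07) were nearest to MITF, with the same order of libraries. A like pattern over the libraries follows from how these genes were picked, and a link between any of them and a factor was not tested.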

How the data were processed

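The deposited table holds whole-number counts per gene, not normalised, for 58735 genes. Per the submitters' processing notes, the build was hg38 and the tools included featureCounts 1.6.2, STAR 2.5.2a and cutadapt 1.16. The annotation, strand setting and treatment of multi-mapping reads were not stated there. Another 6 columns of per-sample counts matched no label given here and were not used. All 58735 identifiers matched GENCODE 29 (99.513% with equal symbols), the source of positions and exon lengths. TMM factors came from edgeR 4.0.16 (R 4.3.3) and alternative size factors from DESeq2 1.42.0; other steps used Python 3.11.15. RPKM is CPM per kb of exon union. Pair ratios added 0.5 count. The chi-square test (2 degrees of freedom) was tried on simulated counts with counting noise only, apart from some genes raised in library 1. That simulation held no other variation between libraries, so it cannot show how the test behaves on these data. The set of 9 factors and the lists were proposed with earlier results of these data known, though no value entered the rule that picks their rows. Named genes were all 9 factors, all genes of fixed pairs, the 3 highest detected and the 0-count genes of each list, genes overlapping or starting within 10 kb of a factor, and the 2 most alike genes. EGR1, FOSB, RPE65, RLBP1, TYRP1, GPR143, RAB38, RDH5, MERTK, PMEL, SERPINF1 and MC1R, the SIX3 ratios to its neighbours and the promoters and motifs shown were chosen after values were seen. Some genes that this rule names are not reported here.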

Additional observations from a re-analysis of the deposited data

How the results depend on the processing

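Of 328 values recomputed under alternatives, 303 met the limits set: the same side of the threshold for a test, the same direction for a ratio, within 1 SD between libraries for a level and within 1.5 times for a count. These limits are wide for low genes, where LHX2 stood at 0.0228 RPKM without library 1 against 0.0384 RPKM and PAX2 at 0.00478 against 0.00866 RPKM. Part of the 303 could not have differed. Ratios within a library do not use the library sizes, so other scaling leaves them unchanged. A ratio with 1 direction in every library cannot reverse when 1 library is left out. RAX and CRX had no counts under any setting. The total of 303 is therefore not a measure of robustness. Leaving out 1 library at a time, the number of factors called by the chi-square test ran from 1 to 4 and that of all genes from 4581 to 10016, against 4 and 11182; both low values came without library 1. With an extra coefficient of variation of 0.05, 5322 genes were called, and with that fitted by edgeR 698 genes and 1 factor. Without length the median level of the 9 factors was 17.9 CPM, the number of neighbouring steps in the same order fell to 1, and the log2 ratios were -0.29 for OTX2 over MITF, -1.17 for OTX2 over PAX6, -0.40 for SIX3 over SOX9 and -0.88 for MITF over PAX6. Per kb of the longest coding transcript, an alternative chosen after seeing the data, the median was 4.55 and MITF over PAX6 was -0.29; these changes follow from the lengths alone. No pairing of samples between groups was possible because there is only 1 group. The gene pair ratios were paired only in that they were formed within each library. Depth limits LHX2, PAX2, RAX and CRX, which could not be tested for spread.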
